A study of Mus musculus with 23 samples.

Results

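Type I interferon-stimulated genes are the antiviral genes that cells switch on after interferon alpha or beta binds its receptor. Here 38 of them were followed by gene symbol through the 48397 symbols of a count table from sorted mouse mammary tumour cells. All 38 had a row, and all 38 passed the low-count filter over the 23 libraries, as did 17503 genes in all. The tumours came from Met1-iRFP cells in FVB mice. Met1 is a mouse mammary cancer line from a polyoma middle T tumour, and iRFP, which fluoresces in the near infrared, tags those cells. Cells positive for iRFP were sorted as cancer cells and cells negative for it as tumour microenvironment (TME) cells, from mice that had been exercised or kept sedentary, and polyA RNA was sequenced. The groups were exercised cancer (7 libraries, 20073700 to 25526059 counts each), sedentary cancer (8 libraries, 15924340 to 25563245), exercised TME (4 libraries, 22682216 to 37388479) and sedentary TME (4 libraries, 16307545 to 35958441). The labels give no age, exercise dose, batch or animal for a library, so the spread behind every p-value is that between libraries and may be partly technical. The cancer cells of all groups are 1 line.

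Interferons alpha and beta bind the receptor Ifnar1/Ifnar2, whose kinases Jak1 and Tyk2 phosphorylate STAT proteins such as Stat2. With Irf9 these form the complex ISGF3, which binds a short DNA element in the promoters of the genes described here. In tumours, macrophages and dendritic cells are known sources and targets of type I interferon, and tumour cells can respond too.

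The DNA element that ISGF3 and interferon regulatory factors bind holds repeats of GAAA, so promoter windows of 250 bases before to 50 after each RefSeq start (build GRCm38.p6) were searched for GAAA, any 2 letters and GAAA again, on both strands (TTTC, 2 letters and TTTC on the other), overlapping matches merged. A window was at hand for 29 of the 38 members. Of those, 13 (44.8%) held a match, against 3.99% of 27025 genes with a window and 3.44% of all 32851 windows. A match is a run of letters and not a measured site. The windows of 4 members on which the results below turn are shown, 5′ to 3′ on the gene's strand, with matched letters in capitals. Rsad2 lies on the minus strand at chr12:26456403-26456702, Oas1a on the minus strand at chr5:120907476-120907775, Isg15 on the minus strand at chr4:156200769-156201068 and Oasl1 on the plus strand at chr5:114922990-114923289.
Rsad2: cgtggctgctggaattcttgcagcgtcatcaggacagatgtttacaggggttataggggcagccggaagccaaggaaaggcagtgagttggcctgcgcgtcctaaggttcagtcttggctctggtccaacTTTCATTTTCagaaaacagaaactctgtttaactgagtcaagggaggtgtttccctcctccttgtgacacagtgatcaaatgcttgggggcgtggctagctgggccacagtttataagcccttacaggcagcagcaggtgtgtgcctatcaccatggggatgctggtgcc
Oas1a: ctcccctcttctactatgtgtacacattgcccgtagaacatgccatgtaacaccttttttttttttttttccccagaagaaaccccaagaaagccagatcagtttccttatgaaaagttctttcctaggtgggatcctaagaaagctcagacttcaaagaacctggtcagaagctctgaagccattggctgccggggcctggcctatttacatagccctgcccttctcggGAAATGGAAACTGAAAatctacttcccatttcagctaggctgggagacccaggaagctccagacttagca
Isg15: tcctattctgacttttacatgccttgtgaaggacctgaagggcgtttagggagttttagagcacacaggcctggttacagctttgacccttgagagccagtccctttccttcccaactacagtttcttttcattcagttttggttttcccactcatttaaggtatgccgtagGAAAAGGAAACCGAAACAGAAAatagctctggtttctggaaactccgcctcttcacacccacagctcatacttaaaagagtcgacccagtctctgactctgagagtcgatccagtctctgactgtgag
Oasl1: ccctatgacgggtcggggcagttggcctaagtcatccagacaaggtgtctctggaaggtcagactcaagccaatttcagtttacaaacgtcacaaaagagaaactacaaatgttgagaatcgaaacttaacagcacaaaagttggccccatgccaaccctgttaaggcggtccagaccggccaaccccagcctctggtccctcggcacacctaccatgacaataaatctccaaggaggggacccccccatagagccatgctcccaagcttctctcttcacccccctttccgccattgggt
The match began 120 bases before the start in Rsad2, 20 before it in Oas1a and 78 before it in Isg15, where it ran over 22 letters. The Oasl1 window held none. Members with and without a match spanned overlapping ranges of every difference reported below. In the TME the exercise log2 fold change had a median of 0.27 over the 13 members with a match and 0.46 over the 16 without.

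Expression values are CPM, a gene's counts set against its library's total, after TMM scaling, which corrects that total for composition. The member level of a library, the mean log2 CPM over the 38 genes, was 3.73 to 4.18 in exercised cancer and 3.51 to 4.03 in sedentary cancer libraries. It was 4.36, 5.03, 4.95 and 4.12 in exercised TME libraries 7, 8, 9 and 10, against 4.35, 4.19, 4.10 and 4.23 in sedentary TME libraries 4, 6, 9 and 10. Exercised TME libraries 8 and 9 thus stood above the other 6 TME libraries. The same pair stood apart in markers of leukocytes. The summed CPM of 10 pan-leukocyte genes such as Ptprc (CD45) was 197, 1014, 1079 and 296 in exercised TME libraries 7, 8, 9 and 10, against 293 to 344 in sedentary TME libraries. The summed CPM of 10 macrophage genes was 518, 2639, 2975 and 626 in those exercised libraries, against 648 to 825 in sedentary TME. In these bulk libraries, more cells of a type and more RNA of a gene per cell cannot be told apart.

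**Figure D1:**
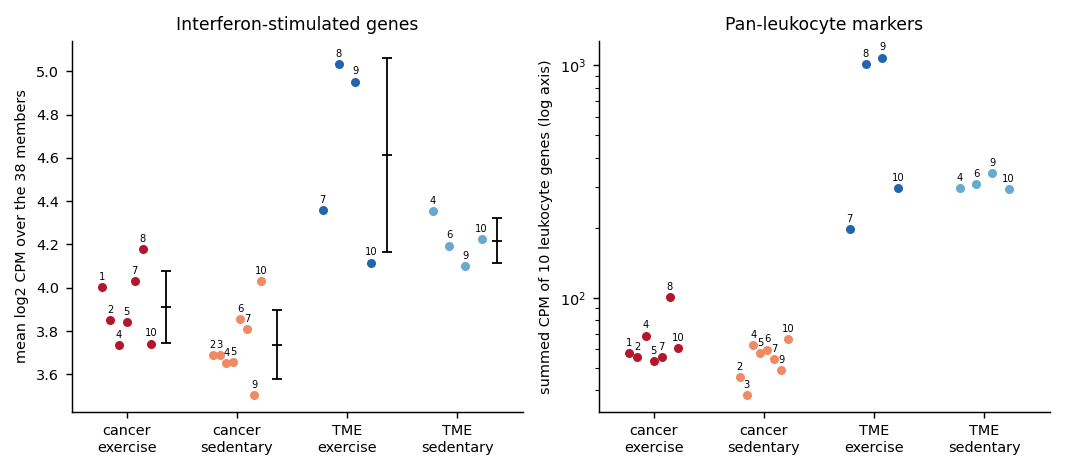
Left, the mean log2 CPM over the 38 members in each library; right, the summed CPM of 10 pan-leukocyte genes on a log axis. Points are libraries with their numbers, and bars on the left are the group mean ± SD (n = 7, 8, 4 and 4 from left to right). Exercised TME libraries 8 and 9 are the highest of all in both panels, at 5.03 and 4.95 on the left.

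Most of the larger marker lists differed between the sorts as their names say. In cancer against TME cells, 10 of 10 pan-leukocyte, 9 of 10 macrophage, 5 of 6 monocyte, 7 of 7 neutrophil, 9 of 9 T cell and 8 of 8 endothelial genes were called lower, as were 6 of 8 fibroblast and mural genes with 1 called higher. Of the smaller lists, 3 of 4 plasmacytoid dendritic, 5 of 6 conventional dendritic, 1 of 3 NK and 1 of 2 B cell genes tested were called lower. Among all genes tested, 25.3% were called lower and 27.3% higher. The NK and B cell lists hold too few genes to set against those shares. Of 10 epithelial genes only 5 passed the filter, 1 called higher and 1 lower. Epcam was at 0.61 to 2.25 CPM in cancer libraries and 0.09 to 2.41 CPM in TME libraries, and Krt8 was at or below 0.805 CPM in every library. Krt18 ranged from 56.5 to 118 CPM in cancer libraries and from 32.0 to 100.5 CPM in TME libraries. These epithelial genes therefore did not separate the sorts. The mitochondrial share of counts was 42.25% in sedentary TME library 4, 14.5% in sedentary TME library 6 and 1.86% to 8.63% in all others.

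Per kilobase of exon, the same 5 members were the most abundant in every group. Bst2 (tetherin, which holds budding virus at the cell surface) averaged 67.2 ± 9.27 RPKM (CPM divided by the exon length in kilobases; SD) in exercised cancer and 84.5 ± 29.3 RPKM in sedentary cancer libraries. In the TME it averaged 121 ± 31.4 RPKM in exercised and 115 ± 30.0 RPKM in sedentary libraries. Isg15, a ubiquitin-like modifier, came next with 52.5 ± 5.85 and 62.8 ± 14.2 RPKM in exercised and sedentary cancer, and 79.6 ± 23.2 and 104.5 ± 28.8 RPKM in exercised and sedentary TME. In both sedentary groups Bst2 and Isg15 differed by less than the SD of Bst2. Lgals3bp (a secreted glycoprotein), Rtp4 and Eif2ak2 (the RNA-activated kinase PKR) followed in ranks 3 to 5 in all 4 groups. At the low end, Cmpk2, a mitochondrial nucleotide kinase, averaged 0.05 RPKM in exercised and 0.04 in sedentary cancer cells, and Oas3 0.44 and 0.31. Between genes, only these per-length values are compared.

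Cancer cells carried less RNA of most interferon-stimulated genes than TME cells, over both treatments. Of 38 members, 22 were called lower in cancer cells and 5 higher at a Benjamini-Hochberg adjusted p under 0.05 in edgeR's quasi-likelihood test over 17503 genes. Among all genes tested, 25.3% were called lower and 27.3% higher. The median log2 fold change of the members was -0.39, against 0.01 over all genes, and 11 members were above 0 (28.9%, against 50.6% of all genes). The sorts did not overlap in 5 members, all lower in cancer (13.2%, against 5.19% of all genes), and in none higher (4.35% of all genes).

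**Figure D2:**
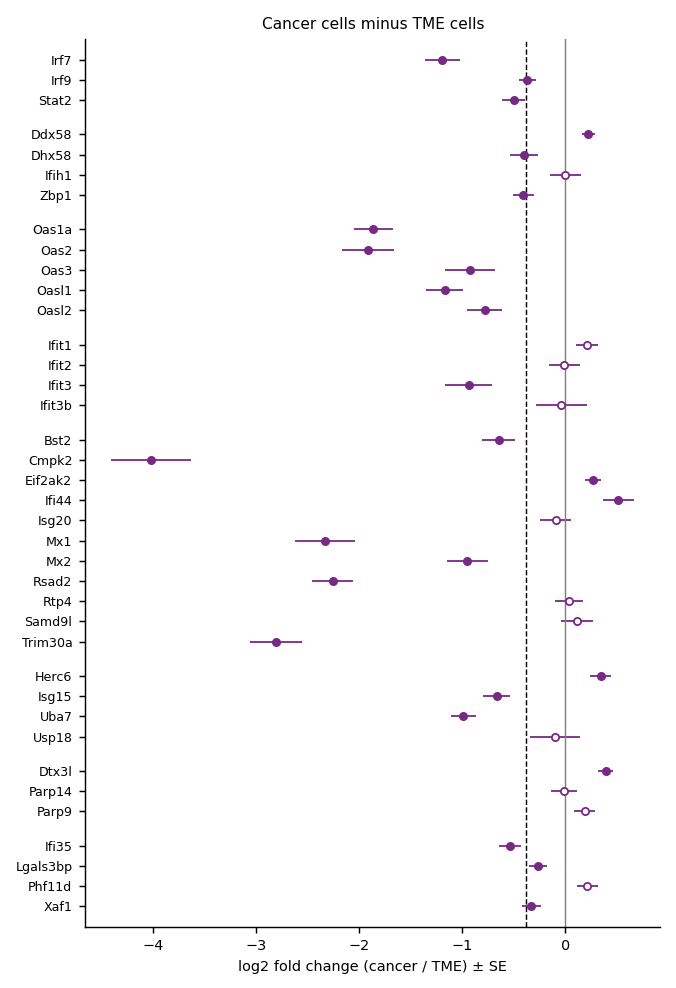
Log2 fold change of each member, cancer over TME, with its SE, grouped by role from top to bottom. Filled points passed an adjusted p under 0.05, the dashed line is the member median of -0.39, and Cmpk2 lies farthest left at -4.02.

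The lowest members in cancer cells were antiviral effectors. Rsad2, whose product viperin makes a chain-terminating nucleotide, was at 1.21 to 2.83 CPM in exercised cancer (median 2.52) and 0.86 to 4.38 CPM in sedentary cancer libraries (median 1.68). In the TME it had 16.0, 19.8, 25.2 and 8.96 CPM in exercised libraries 7, 8, 9 and 10 and 6.46, 7.27, 5.19 and 6.48 CPM in sedentary libraries 4, 6, 9 and 10. Every cancer library lay below every TME library, with a log2 fold change of -2.26 ± 0.20 (SE; edgeR adjusted p = 3.78e-10). Rsad2 spans chr12:26442746-26456452 on the minus strand (GRCm38), and its neighbour Cmpk2 chr12:26469204-26479837 on the plus strand. Cmpk2 had 2 to 7 counts in exercised cancer and 0 to 8 in sedentary cancer libraries, or 0.08 to 0.31 and 0.00 to 0.37 CPM. In exercised TME it had 1.99, 5.60, 6.70 and 1.86 CPM, and in sedentary TME 4.59, 1.81, 1.77 and 1.21 CPM. The groups did not overlap, at -4.02 ± 0.39 (adjusted p = 1.70e-09).

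Trim30a, a TRIM family protein known to dampen Toll-like receptor signalling, was at 3.41 to 6.78 CPM in exercised cancer (median 4.03) and 2.57 to 4.71 in sedentary cancer (median 3.41). In exercised TME it had 11.8, 62.0, 82.5 and 16.2 CPM and in sedentary TME 19.1, 11.3, 22.2 and 20.9 CPM. It was lower in every cancer than in any TME library, by -2.81 ± 0.25 on the log2 scale (adjusted p = 6.18e-09). Mx1, a dynamin-like GTPase that blocks influenza virus in mice, was lower in cancer cells at -2.34 ± 0.29 (adjusted p = 2.56e-07), also without overlap. Mx2 was lower by -0.95 and Bst2 by -0.65. In the other direction Ifi44 (0.52 ± 0.15) and the kinase Eif2ak2 (0.27 ± 0.08) were called higher in cancer cells. Of the 11 effectors, 6 were called lower and 2 higher, and Isg20, Rtp4 and Samd9l lay between -0.09 and 0.12 with no call.

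All 5 members of the OAS family, enzymes or enzyme relatives that sense double-stranded RNA and in part activate RNase L, were called lower in cancer cells. Oas1a had 2.20 to 6.37 CPM in exercised cancer (median 4.26) and 1.84 to 3.77 CPM in sedentary cancer (median 2.89). In the TME it had 9.61, 23.9, 20.8 and 6.97 CPM in exercised and 13.01, 10.2, 10.2 and 7.78 CPM in sedentary libraries. The sorts did not overlap, at -1.86 ± 0.19 (edgeR adjusted p = 5.40e-09). Of the 50-base words in Oas1a exons, 57.6% also occur in its neighbour Oas1g, so reads may be split between them. Oas2 (-1.91), Oasl1 (-1.17), Oas3 (-0.92) and Oasl2 (-0.78) were lower with overlap between the sorts.

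The 3 signalling factors were also lower in cancer cells. Irf7, the transcription factor that amplifies interferon production, was at 5.35 to 8.60 CPM in exercised cancer (median 5.92) and 5.25 to 11.4 in sedentary cancer (median 6.50). In exercised TME it had 10.6, 30.8, 24.3 and 11.2 CPM and in sedentary TME 17.5, 11.2, 12.0 and 13.7 CPM. Only the upper end of sedentary cancer reached into the TME range, and the difference was -1.19 ± 0.17 (adjusted p = 1.07e-06). The ISGF3 subunit Stat2 had 44.4 to 60.8 CPM in exercised cancer (median 50.7) and 37.5 to 74.4 in sedentary cancer (median 51.9). It had 97.7, 97.0, 80.8 and 63.7 CPM in exercised and 79.0, 71.7, 42.6 and 68.0 CPM in sedentary TME, at -0.50 ± 0.11 (adjusted p = 3.28e-04). Its groups overlapped, and between sedentary libraries alone it was at -0.30 with an adjusted p of 0.119. The DNA-binding subunit Irf9 had 39.3 to 53.6 CPM in exercised cancer (median 47.2) and 40.2 to 60.7 in sedentary cancer (median 47.3). In exercised TME it had 58.6, 70.2, 61.3 and 50.4 CPM and in sedentary TME 67.8, 68.3, 49.5 and 62.4 CPM, at -0.37 ± 0.08 (adjusted p = 3.24e-04). The sorts overlapped in Irf9 as well.

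Isg15 and the enzyme that loads it were lower in cancer cells, while its ligase was higher. Isg15 had 33.5 to 44.7 CPM in exercised cancer (median 40.9) and 29.8 to 60.3 in sedentary cancer (median 48.6). In exercised TME it had 83.4, 58.7, 40.7 and 58.0 CPM and in sedentary TME 100.8, 80.5, 49.1 and 85.6 CPM, with overlap and a difference of -0.67 ± 0.13 (adjusted p = 1.26e-04). Uba7, the E1 enzyme that activates Isg15, had 14.3 to 21.4 CPM in exercised cancer (median 16.0) and 10.8 to 24.1 in sedentary cancer (median 14.6), and was lower by -0.99 ± 0.12 (adjusted p = 1.25e-07). Herc6, the mouse ligase for Isg15, was higher in cancer at 0.34 ± 0.10 (adjusted p = 0.00455). Of the exons of Herc6, 13.7% overlap another gene on the same strand, as do 13.9% of those of Rtp4, so reads there cannot be assigned to 1 gene. Usp18, which removes Isg15 and restrains the receptor, was at -0.10 with no call.

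Among the IFIT genes, whose proteins bind foreign RNA ends, only Ifit3 was called. It had 3.41 to 5.2 CPM in exercised cancer (median 4.05) and 1.47 to 4.70 in sedentary cancer (median 3.32), against 3.65, 11.1, 12.1 and 3.82 CPM in exercised and 9.36, 7.11, 3.75 and 5.14 CPM in sedentary TME. The difference was -0.94 ± 0.23 (adjusted p = 0.00113), and with exercised TME libraries 8 and 9 left out it was -0.44 with an adjusted p of 0.105. Its near copy Ifit3b had 1.38 to 3.004 CPM in exercised cancer (median 1.83) and 0.79 to 3.56 in sedentary cancer (median 1.63). In exercised TME Ifit3b had 1.88, 2.31, 1.82 and 0.98 CPM and in sedentary TME 1.78, 1.12, 1.98 and 2.91 CPM, at -0.04 ± 0.25 (adjusted p = 0.913). Ifit3 shares 51.2% of its 50-base words with Ifit3b and Ifit3b 44.5% with Ifit3, so how their reads were divided is uncertain. Ifit1 (0.21) and Ifit2 (-0.01) had no call.

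The sensors of viral nucleic acid were split. The helicase Ddx58 (RIG-I) was higher in cancer at 0.22 ± 0.06, Dhx58 (LGP2) and the Z-nucleic acid sensor Zbp1 were lower at -0.40 and -0.41, and Ifih1 (MDA5) was at 0.00. In the pair Parp9 and Dtx3l, which act as 1 ubiquitin ligase and lie head to head, Dtx3l was higher at 0.39 ± 0.08 and Parp9 was at 0.19 with no call. They share 458 exonic bases on opposite strands, and the strand setting of the counting is not given. Parp14, an ADP-ribosyltransferase, was at -0.01. Ifi35, Xaf1 and Lgals3bp were called lower, from -0.54 to -0.26. Of the exons of Ifi35, 16.8% overlap an antisense gene, as do 4.31% of those of Dhx58. Since the strand setting is unknown, their counts may hold antisense reads. Phf11d was at 0.22 with no call.

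The count of members called differed with the libraries compared, as did that of all genes, of which 9201 of 17503 were called over all libraries. Without exercised TME libraries 8 and 9, 18 members were called lower and 9 higher (8782 of 18433 genes called). With sedentary libraries only, of both sorts, 14 were lower and 3 higher (7142 of 17503 genes). Without sedentary TME libraries 4 and 6, 21 were lower and 1 higher (8007 of 18669 genes). The pan-leukocyte sum was 53.4 to 100.2 CPM in exercised cancer and 38.2 to 66.5 CPM in sedentary cancer libraries. It was 197 to 1079 CPM in TME libraries. The part of leukocyte markers in the counts of members called was not tested.

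Exercised and sedentary TME cells were compared to ask whether exercise shifted the interferon programme outside the cancer cells. No member was called in either direction by edgeR over 16273 genes, and no gene was (0.00% called higher, 0.00% lower). At an unadjusted p under 0.05, 12 of 38 members were higher and 0 lower (31.6% higher, against 4.93% higher and 3.51% lower of all genes). The median member log2 fold change was 0.35, against 0.01 over all genes, and 31 members were above 0 (81.6%, against 51.3%). DESeq2 called 3 members higher, Rsad2, Oasl1 and Uba7, among 0.154% of all genes called higher, and limma voom called none.

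**Figure D3:**
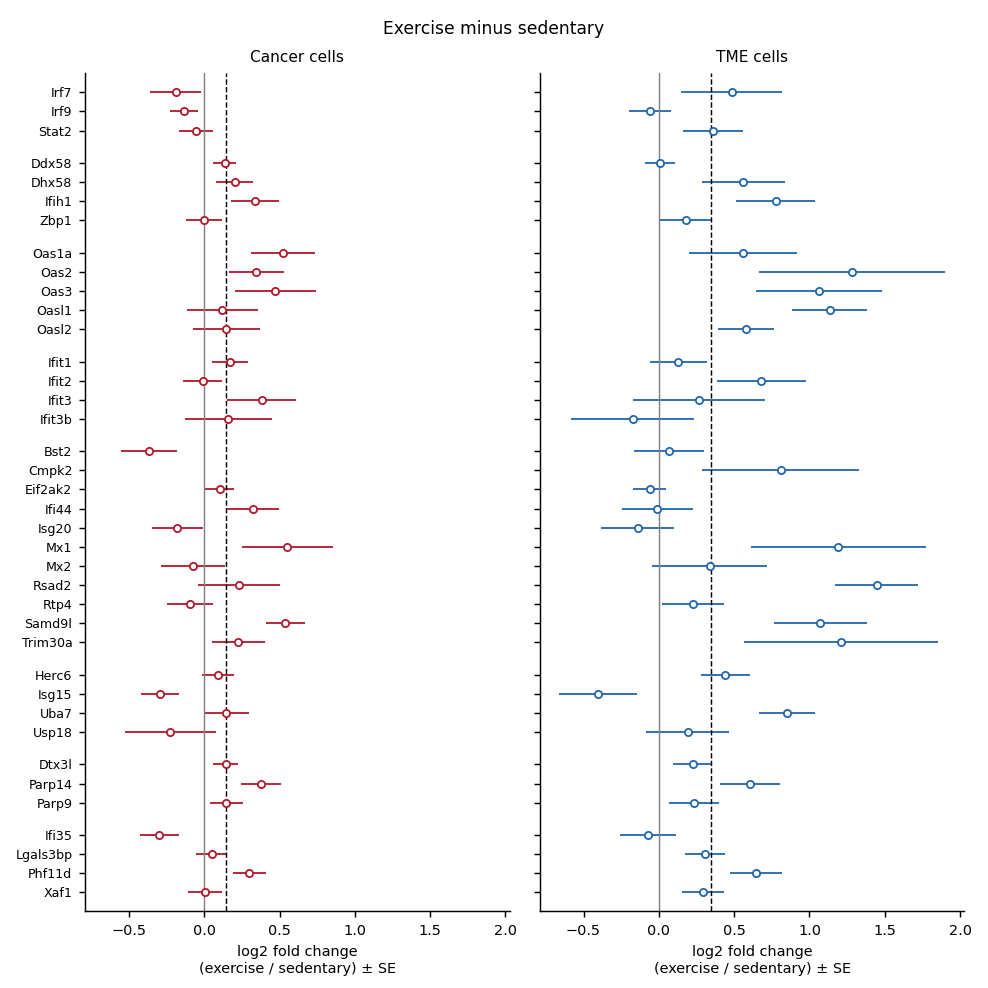
Log2 fold change of each member, exercised over sedentary, with its SE, in cancer cells (left) and TME cells (right), grouped by role. No point is filled, since no member passed an adjusted p under 0.05 in edgeR, and the dashed medians are 0.14 and 0.35. Cmpk2 was too low to test in cancer cells.

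In 5 members every exercised TME library lay above every sedentary one (13.2%, against 1.96% of all genes), and in none below (1.78% of all genes). The first was Rsad2, whose 4 exercised values given above (8.96 to 25.2 CPM) lay over the 4 sedentary ones (5.19 to 7.27 CPM). Its log2 fold change was 1.45 ± 0.28 (edgeR adjusted p = 0.586, and 0.00871 in DESeq2). Oasl1, an OAS relative known in mice to restrain Irf7 translation, had 12.4, 11.8, 11.0 and 6.57 CPM in exercised TME libraries 7, 8, 9 and 10, against 5.71, 4.98, 3.90 and 4.34 CPM in sedentary TME libraries. Its difference was 1.13 ± 0.25 (adjusted p = 0.586, and 0.0166 in DESeq2). The highest Oasl1 value was in exercised library 7, which had the lowest pan-leukocyte sum of the 8 TME libraries. Libraries 8 and 9, with the highest sums, were close below it, and library 10 was the lowest exercised one. How Oasl1 goes with these sums was not tested.

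Uba7 had 36.2, 60.1, 43.1 and 32.6 CPM in exercised TME libraries, against 27.5, 23.5, 22.1 and 21.4 CPM in sedentary ones, at 0.85 ± 0.18 (edgeR adjusted p = 0.586, and 0.0357 in DESeq2). Phf11d, a PHD finger protein of an interferon-induced cluster, had 18.7, 27.6, 25.4 and 23.4 CPM in exercised and 12.1, 18.5, 15.1 and 14.3 CPM in sedentary TME, at 0.65 ± 0.17 (adjusted p = 0.586). The lowest exercised value of Phf11d was barely above the highest sedentary one. Herc6, at 26.6, 40.2, 42.7 and 28.8 CPM in exercised and 24.9, 26.1, 23.2 and 26.5 CPM in sedentary TME, was the fifth, and its groups all but touched.

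**Figure D4:**
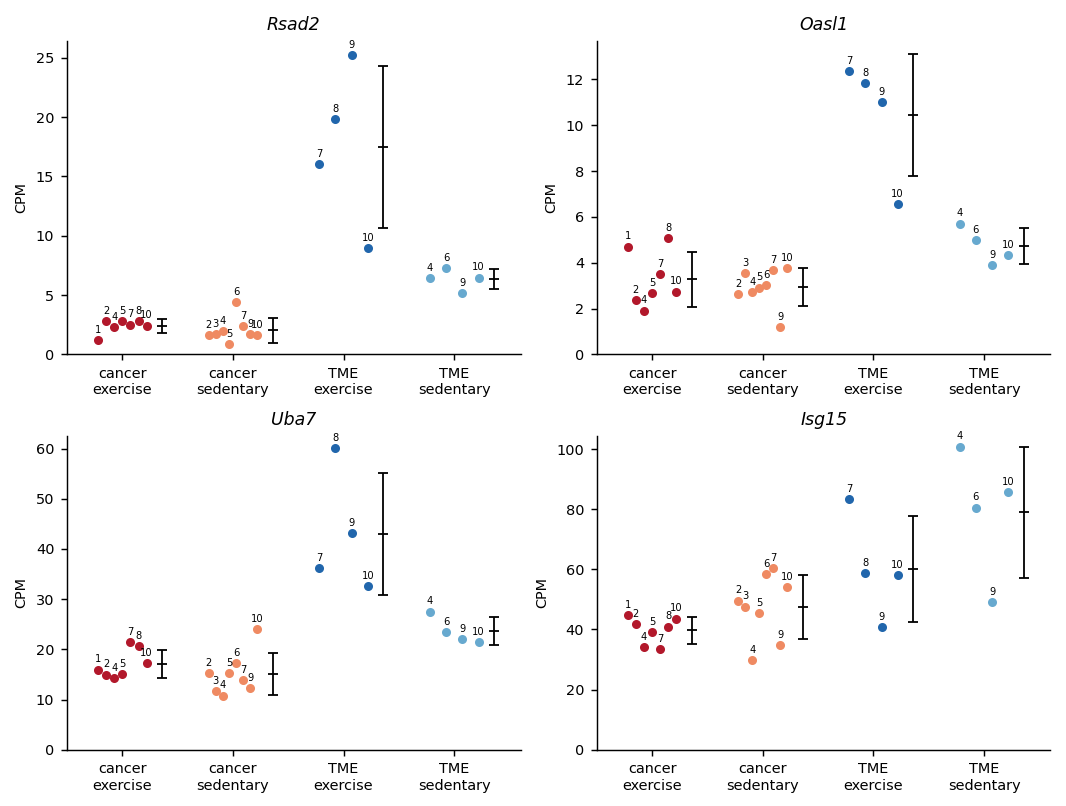
CPM of Rsad2, Oasl1, Uba7 and Isg15 in every library, with library numbers and the group mean ± SD (n = 7, 8, 4 and 4 from left to right). All 4 exercised TME libraries lie above the sedentary TME libraries in Rsad2, Oasl1 and Uba7, and the groups overlap in Isg15.

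The central factors did not stand apart between exercised and sedentary TME. Irf7 was high in libraries 8 and 9 (30.8 and 24.3 CPM), while libraries 7 and 10 (10.6 and 11.2) lay just below the lowest sedentary library, and its difference was 0.48 ± 0.33 (adjusted p = 0.660). Stat2 was at 0.36 ± 0.20 (adjusted p = 0.600) and Irf9 at -0.06 ± 0.14 (adjusted p = 0.912), with groups that overlapped. Isg15 was at -0.41 ± 0.26 (adjusted p = 0.637), the lowest of the 38. Ifit3 was at 0.27 ± 0.44 (adjusted p = 0.870) and Ifit3b at -0.17 ± 0.41 (adjusted p = 0.916). Within roles, all 5 OAS genes and all 4 sensors were above 0, with medians of 1.07 and 0.37. So were 8 of 11 effectors (median 0.34), 3 of 4 IFIT genes (0.20), 3 of 4 of the ISG15 system (0.32), 3 of 3 of the ADP-ribosylation group (0.23) and 3 of 4 others (0.30).

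Most of this pattern sat in exercised TME libraries 8 and 9. They were the top 2 of the 8 TME libraries in 26 of 38 members, against 15.9% of the 17503 genes, and 1 of them was the highest in 30 members. Over all genes, library 8 was the highest in 11.1% and library 9 in 17.8%. Exercised library 8 exceeded all 4 sedentary libraries in 31 members and library 9 in 30, while library 7 did so in 14 and library 10 in 6. Over all genes, those shares were 26.2%, 28.4%, 16.9% and 20.5% for libraries 8, 9, 7 and 10. The widest gaps were in Trim30a, Mx1 and Oas2. Oas2 had 14.8, 65.4, 66.5 and 10.7 CPM in exercised and 11.9, 16.3, 16.9 and 18.3 CPM in sedentary TME, so that libraries 7 and 10 were among the sedentary values or below them.

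**Figure D5:**
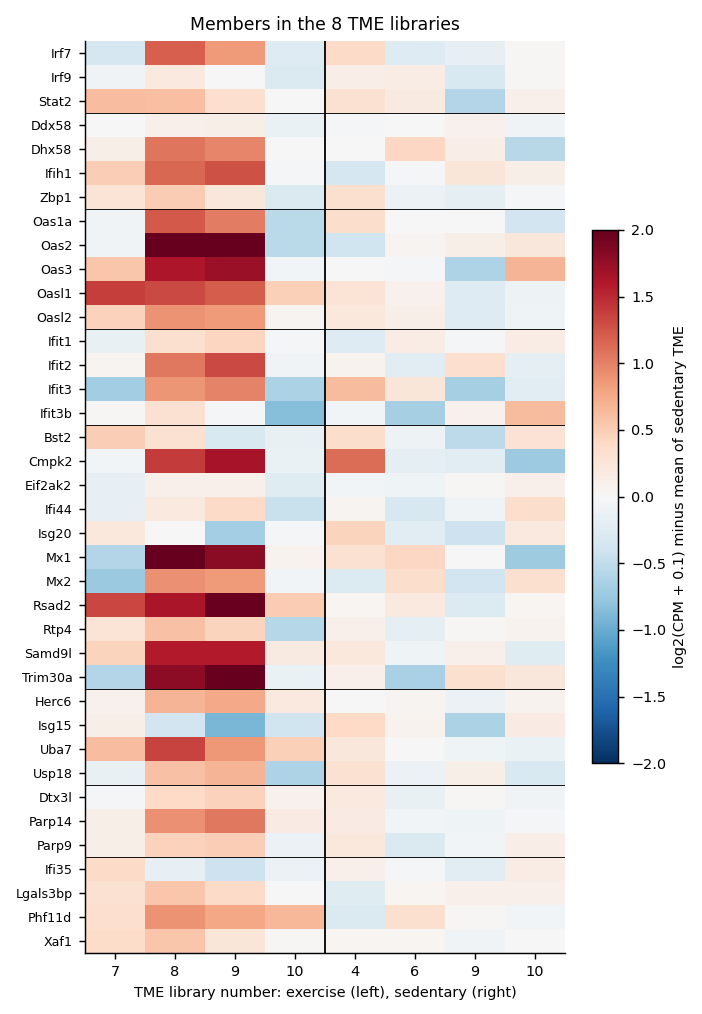
Log2(CPM + 0.1) of each member in the 8 TME libraries, minus the mean of the 4 sedentary ones, with colours capped at 2 in either direction and members grouped by role. Exercised libraries 8 and 9 are the top 2 in 26 of 38 rows, and Oasl1, Rsad2, Uba7 and Phf11d are among the rows above 0 in all 4 exercised libraries.

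These libraries were singled out after their high member values were seen, so a lower median without them follows in part from that choice. With both of them left out, the member median was 0.01, with 20 members above and 18 below 0 (50.4% of all genes were above 0). In edgeR 4 of the 38 members had an unadjusted p under 0.05, against 2.73% of all genes. Rsad2 was then at 0.99 ± 0.29, Oasl1 at 1.02 ± 0.32, Uba7 at 0.56 ± 0.17 and Phf11d at 0.49 ± 0.22, with an edgeR adjusted p of 0.9999 each. Irf7 was at -0.30 and Ifit3 at -0.74 in that comparison. With only the pair of sedentary libraries of high mitochondrial share (4 and 6) left out, the median was 0.53. Leukocyte, macrophage, T cell and B cell marker sums were highest in libraries 8 and 9 too. Endothelial genes lay the other way, with all 8 below 0 in exercised against sedentary TME (median -1.08). Their summed CPM was 106, 38.5, 70.1 and 75.2 in exercised TME libraries 7, 8, 9 and 10, against 386, 96.2, 82.0 and 74.4 in sedentary libraries 4, 6, 9 and 10. The part of these markers in the member values was not tested. The 12 members whose top 2 libraries were not 8 and 9 were Irf9, Stat2, Zbp1, Oasl1, Ifit3b, Eif2ak2, Isg20, Bst2, Ifi44, Isg15, Xaf1 and Ifi35.

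In cancer cells, exercised and sedentary libraries were compared to ask whether the members differed within the iRFP-positive sort. Of 37 members tested (Cmpk2 was too low), none was called by edgeR over 15096 genes, nor was any gene (0.00% called higher, 0.00% lower). At an unadjusted p under 0.05, 5 were higher (13.5%, against 5.92% of all genes) and 2 lower (5.41%, against 6.67%). The member median was 0.14, against -0.01 over all genes, and 25 members were above 0 (67.6%, against 47.4%). The groups overlapped in every member, while over all genes they stood apart in 0.298% higher and 0.0530% lower.

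Samd9l, an antiviral protein that limits translation, was the member with the smallest p. It had 14.0 to 29.5 CPM in exercised cancer libraries (median 20.6) and 11.6 to 18.2 in sedentary ones (median 13.9), and 6 of 7 exercised libraries exceeded the sedentary mean. The log2 fold change was 0.54 ± 0.13 with an edgeR adjusted p of 0.121. It was 0.0184 in DESeq2 (0.416% of all genes called higher), 0.0269 in limma voom (0.669% called higher), 0.0340 with no low-count filter and 0.0493 in edgeR without sedentary cancer library 4. The other 19 of 23 alternatives gave no call, up to an adjusted p of 0.999 with the replicate number as a block. Parp14 had 51.6 to 94.1 CPM in exercised cancer (median 61.3) and 39.1 to 72.3 in sedentary cancer (median 47.0), at 0.38 ± 0.13 (adjusted p = 0.261). Phf11d had 22.4 to 27.5 CPM in exercised cancer (median 25.1) and 13.6 to 24.7 in sedentary cancer (median 20.2), at 0.30 ± 0.11 (adjusted p = 0.279). In both genes all 7 exercised libraries exceeded the sedentary mean, and the groups overlapped.

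Oas1a, with the values given above, was at 0.52 ± 0.21 (adjusted p = 0.322). Isg15 went the other way, at -0.30 ± 0.13 (edgeR adjusted p = 0.346). Its 7 exercised values all lay below the sedentary mean of 47.5 CPM, inside the wider sedentary range. The same held for Bst2 (-0.37 ± 0.19) and Ifi35 (-0.30 ± 0.13). Irf7 was at -0.19 ± 0.17 (adjusted p = 0.687), Irf9 at -0.13 ± 0.09 (adjusted p = 0.586) and Stat2 at -0.06 ± 0.11 (adjusted p = 0.881). Ifit3 was at 0.38 ± 0.23 (adjusted p = 0.509) and Ifit3b at 0.16 ± 0.29 (adjusted p = 0.865).

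By role, all 5 OAS genes were above 0 in exercised cancer cells (median 0.35), as were all 3 of the ADP-ribosylation group (0.15), 3 of 4 sensors (0.17) and 3 of 4 IFIT genes (0.17). Of the 10 effectors tested 6 were above 0 (median 0.17), of the ISG15 system 2 of 4 (-0.07) and of the remaining genes 3 of 4 (0.03). The signalling factors were all below 0 (median -0.13). The library with the highest member level, exercised cancer 8 (4.18), also had the highest pan-leukocyte sum of the cancer libraries (100.2 CPM). The exercised cancer group had pan-leukocyte sums of 53.4 to 100.2 CPM and the sedentary group 38.2 to 66.5 CPM, and 9 of 10 pan-leukocyte genes were above 0 under exercise (median 0.57). Their part in the differences was not tested.

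The exercise effect was then compared between the sorts, as the effect in cancer cells minus that in TME cells. By edgeR no member and no gene was called in either direction (0.00% called higher, 0.00% lower). At an unadjusted p under 0.05, 4 members were lower (10.5%, against 4.18% of all genes) and 0 higher (3.34% of all genes). DESeq2 and limma voom called 0 members. The member median was -0.33, against -0.01 over all genes, and 7 members were above 0 (18.4%, against 48.3%). The 4 were Rsad2 (-1.20 ± 0.41, edgeR adjusted p = 0.559), Uba7 (-0.69 ± 0.25, 0.577), Oasl1 (-0.996 ± 0.37, 0.577) and Ifit2 (-0.68 ± 0.30, 0.626). Ifit2 was at -0.01 in cancer cells and 0.68 in the TME, where it had 21.3, 42.6, 51.4 and 19.6 CPM in exercised and 21.4, 17.8, 25.9 and 17.9 CPM in sedentary libraries.

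For the factors, the difference of effects was -0.66 ± 0.35 for Irf7 (edgeR adjusted p = 0.687), -0.40 ± 0.22 for Stat2 (adjusted p = 0.701) and -0.05 ± 0.16 for Irf9 (adjusted p = 0.958). It was 0.13 ± 0.27 for Isg15 (adjusted p = 0.936), 0.12 ± 0.47 for Ifit3 (adjusted p = 0.968) and 0.35 ± 0.50 for Ifit3b (adjusted p = 0.907). All 5 OAS genes, all 3 signalling factors and 9 of 11 effectors were below 0, and 3 of 4 IFIT genes were above it. Without exercised TME libraries 8 and 9 the member median was 0.13 and 25 of 38 members were above 0, against 49.5% of all genes. Here too, that shift follows in part from having singled out these libraries for their high member values. Rsad2 was then at -0.73, Oasl1 at -0.88, Uba7 at -0.39 and Ifit2 at 0.02. With the replicate number as a block the member median was -0.0818, with 15 members above 0 and 23 below (50.4% of all genes above 0).

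The rest of the pathway was read from gene lists. The interferons themselves were at the edge of detection. Ifnb1 had 83 counts over all 23 libraries and did not exceed 0.47 CPM in any, and of 20 type I and III ligands only Ifne passed the filter, with 142 counts in all. Between cancer and TME cells, Ifne was at -1.08 ± 0.62 (edgeR adjusted p = 0.147).

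In cancer against TME cells, 4 of 6 interferon receptor chains were called lower and none higher, where 25.3% of all genes were called lower and 27.3% higher. Il10rb, a chain of the interferon lambda receptor, was at -1.44 ± 0.13 (edgeR adjusted p = 8.34e-10) and Ifnar2 at -0.82 ± 0.11 (adjusted p = 3.53e-07), while Ifnar1 was at 0.04 ± 0.11 (adjusted p = 0.795). Among the receptor kinases, Jak1 was called higher (0.33 ± 0.06, adjusted p = 9.80e-05). Of 12 sensing genes 6 were called lower, led by Irf5 (-2.04 ± 0.14) and Tlr9 (-3.22 ± 0.45), and 1 higher. Of 6 negative regulators tested 3 were lower and 1 higher, and the phosphatase Ptpn6 (-2.63 ± 0.20) and the nucleotide hydrolase Samhd1 (-0.73 ± 0.09) had the smallest p.

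Of the interferon-gamma ligand and its targets 9 of 13 were called lower in cancer and none higher. Among them were the chemokine Cxcl9 (-3.35 ± 0.21), the myeloid factor Irf8 (-2.38 ± 0.24), Irf1 (-0.78 ± 0.14) and Ifng itself (-2.77 ± 0.70, from 226 counts in all). A second set of 34 interferon-induced genes outside the 38 had 24 called lower and 3 higher, with a median of -0.42, beside -0.39 for the members. Slfn2 (-4.27 ± 0.23) and Ifitm1 (-3.65 ± 0.29) led it. Leukocyte markers were lower in the same direction, as given above, and their part in these differences was not tested.

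Under exercise in the TME edgeR called none of the 74 pathway genes tested, with 19 higher and 0 lower at an unadjusted p under 0.05. Among all genes, 4.93% were higher and 3.51% lower at that threshold. DESeq2 called 4 higher, Cd274 (PD-L1, 1.43), Gbp5, Nlrc5 and Ddx60, with adjusted p from 0.00871 to 0.0488, and limma voom called 0. Of all genes, DESeq2 called 0.154% higher. All 6 receptor chains (median 0.44), all 5 kinases and STATs (0.26), all 6 negative regulators tested (0.24) and all 12 interferon-gamma genes tested (0.83) were above 0. So were 9 of 12 sensing genes (0.21) and 27 of 34 other interferon-induced genes (0.46). Ifnar1 had 38.9, 82.99, 85.2 and 47.2 CPM in exercised and 30.3, 40.0, 48.9 and 42.5 CPM in sedentary TME, at 0.63 ± 0.25, and Ifnar2 was at 0.46 ± 0.19 (edgeR adjusted p = 0.586 each). Libraries 8 and 9 were the highest in Ifnar1 and the groups overlapped.

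The smallest p of each list in the TME belonged to Nlrc5 (0.77 ± 0.14) and Gbp5 (0.94 ± 0.18) of the interferon-gamma targets, and Ddx60 (1.12 ± 0.28) and Gbp7 (0.62 ± 0.17) of the other induced genes. Jak2 was at 0.40 ± 0.15 among the kinases, Tlr9 at 2.01 ± 0.83 and Ikbke at 0.42 ± 0.18 among sensing genes, and Samhd1 at 0.43 ± 0.17 and Ptpn6 at 0.77 ± 0.49 among negative regulators. Irf1 was at 0.01 ± 0.20 (edgeR adjusted p = 0.994), Ifng at 1.28 ± 1.22 (adjusted p = 0.756) and Ifne at 0.94 ± 0.97 (adjusted p = 0.779). Of 4 plasmacytoid dendritic genes tested, a cell type that makes much interferon alpha, 3 were above 0 and Tcf4 was at -0.27. The surface marker Siglech had 0.52, 8.13, 7.19 and 0.62 CPM in exercised TME libraries, against 0.56, 0.20, 1.80 and 0.94 CPM in sedentary ones. Siglech was highest in libraries 8 and 9, and so was the mean log2 level of the list, at 3.05 in each. That level was 0.759 to 1.9986 in the other TME libraries. The summed CPM of the whole list, in which abundant genes weigh most, was instead lowest in library 8. This sum was 283 to 376 in exercised and 314 to 421 in sedentary TME.

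Under exercise in cancer cells edgeR called none of 70 pathway genes, with 7 higher and 3 lower at an unadjusted p under 0.05, and no ligand passed the filter. Among all genes, 5.92% were higher and 6.67% lower at that threshold. DESeq2 called Slfn8 higher (adjusted p = 0.0181), and limma voom called Slfn8 (0.0241) and Slfn9 (0.0408) higher. Of all genes, DESeq2 called 0.416% higher and limma voom 0.669%. Irf1 was at -0.09 ± 0.18 (edgeR adjusted p = 0.883), Ifnar1 at 0.09 ± 0.08 (adjusted p = 0.681) and Ifnar2 at -0.07 ± 0.12 (adjusted p = 0.864). The medians were -0.03 over 6 receptor chains, 0.02 over 5 kinases and STATs, -0.02 over 11 sensing genes, 0.01 over 6 negative regulators, 0.16 over 11 interferon-gamma genes and 0.10 over 33 other induced genes. The Schlafen genes Slfn8 (0.65 ± 0.16, adjusted p = 0.128) and Slfn9 (0.39 ± 0.11, adjusted p = 0.189) had the smallest p. The others with the smallest p in their lists were Tbk1 (-0.15), Tlr7 (0.57), Ciita (0.43), Nlrc5 (0.30), Il10rb (-0.25), Socs1 (-0.29), Adar (0.12), Jak1 (0.10) and Tyk2 (-0.12).

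In the difference of effects edgeR and DESeq2 called none of the pathway genes, with 12 lower and 0 higher at an unadjusted p under 0.05 in each. Among all genes, edgeR had 4.18% lower and 3.34% higher at that threshold. The limma voom fit called 1 pathway gene lower, Cd274 (-1.51, adjusted p = 0.0352), and 0.131% of all genes lower. All 6 receptor chains, all 13 interferon-gamma genes and all 6 negative regulators were below 0, with medians of -0.48, -0.60 and -0.27. Of 12 sensing genes 1 was above 0 (median -0.19), of 5 kinases and STATs 1 (-0.23) and of 34 other induced genes 9 (-0.26). The smallest p were those of Cd274 (-1.32 ± 0.35, edgeR adjusted p = 0.464) and the kinase Tbk1 (-0.36 ± 0.12, adjusted p = 0.559). Others named by rank in their lists were Il10rb (-0.73), Ciita (-1.25), Ifnar1 (-0.53), Plscr1 (-0.50), Samhd1 (-0.40), Jak2 (-0.28), Ptpn6 (-0.70), Irf5 (-0.49) and Ifne (-0.56). Ifnar2 was at -0.51, Irf1 at -0.07 and Ifng at -2.25 ± 1.46.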

How the data were processed

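The deposited file holds gene counts of 23 libraries. Per the submitters' processing notes, the authors used STAR, featureCounts and build mm10; versions and annotation, like the strand setting, are not given in sources used here. From the deposited counts, genes were filtered with filterByExpr, scaled by TMM and tested across all genes with edgeR 4.0.16 (R 4.3.3; robust quasi-likelihood, two-sided, Benjamini-Hochberg, threshold 0.05); a fit's SE is its log2 fold change over the root of F. The cancer minus TME comparison and the difference of effects used all 23 libraries in 4 groups, each exercise comparison only its own sort. CPM use TMM, and the member level also a prior count of 2. DESeq2 1.42.0, limma 3.58.1 (voom), other scalings, filters, a replicate block and leaving out libraries were alternatives, and leaving out TME libraries 8 and 9, or 4 and 6, was chosen after seeing the data. Exon lengths, overlaps and coordinates come from GENCODE on GRCm38, and promoters from RefSeq. The edgeR fit was also run on simulated counts, and the outcome is not given here.

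Members and gene lists were chosen with earlier results of these data known. Named in full are, for each comparison, the 4 members of smallest p, plus Irf7, Irf9, Stat2, Isg15, Ifit3 and Ifit3b, and of each pathway list the 2 of smallest p with Irf1, Ifnar1, Ifnar2, Ifnb1 and Ifng; 1 further gene of these lists is not reported here. Values of other members named with their roles were added after they were seen.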

Additional observations from a re-analysis of the deposited data

Results flagged for a closer look

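In 3 cases a single cancer library stood apart from its group by Dixon's criterion, out of 68 groups of 4 to 10 libraries tested, where chance alone sets apart about 1 in 20. Rsad2 was at 1.21 CPM in exercised cancer library 1, against 2.28 to 2.83 CPM in the other exercised cancer libraries. Trim30a was at 6.78 CPM in exercised cancer library 8, against 3.41 to 4.58 CPM in the others of that group, and this library also had the highest pan-leukocyte sum of the cancer libraries (100.2 CPM). Oasl1 was at 1.21 CPM in sedentary cancer library 9, against 2.63 to 3.78 CPM in the other sedentary cancer libraries.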

How the results depend on the processing

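With 4 exercised and 4 sedentary TME libraries, the TME comparison and the difference of effects had the least precision, and members under 3 CPM rest on few counts. In cancer minus TME, 17 members were called between sedentary libraries only (7142 of all genes, against 9201 over all libraries), with a median of -0.27. Leaving out single libraries gave 25 to 28 calls and a median of -0.49 to -0.35. Where the library left out was a TME one, 8599 to 9190 of all genes were called. Ifit3b, which had no call, changed sign with voom (0.00898), with exercised libraries only (0.13), without TME libraries 8 and 9 (0.0773) and over single libraries left out (-0.19 to 0.0433). For exercise in the TME, DESeq2 called 3 members (40 of all genes) and the fit with no filter 1 (6 of all genes). Leaving out single libraries gave 0 members and 0 genes. The median was 0.55 with voom, 0.00719 without libraries 8 and 9, 0.53 without sedentary libraries 4 and 6, and 0.23 to 0.52 over single libraries left out. Signs changed there for Irf9 (0.0185 with voom, 0.11 without libraries 4 and 6, -0.16 to 0.0117 over single libraries left out), Ifit3b (0.0395 with voom, -0.37 to 0.10), Ifit3 (-0.74 without libraries 8 and 9, -0.0305 to 0.53) and Irf7 (-0.30 without libraries 8 and 9). For exercise in cancer cells, 1 member was called by DESeq2 (146 of all genes), voom (197) and with no filter (28). Over single libraries left out 0 to 1 was called, with 43 of all genes called without sedentary cancer library 4. Ifit3b was at -0.000424 with voom, and Stat2 ranged from -0.11 to 0.0314 over single libraries left out. The median difference of effects was -0.45 with voom, 0.13 without libraries 8 and 9 and -0.49 to -0.22 over single libraries left out. Signs changed there for Ifit3 (-0.49 with voom, -0.41 without libraries 4 and 6, -0.17 to 0.39 over single libraries), Ifit3b (-0.0560 with voom) and Isg15 (-0.13 without libraries 8 and 9, -0.12 without 4 and 6, -0.0514 to 0.28 over single libraries). Without libraries 8 and 9 they also changed for Ifit2 (0.0240), Irf7 (0.13) and Irf9 (0.0603). The cause of these changes was not tested.

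For a check of pairing, each gene's group mean was taken off its log2 CPM, and these deviations were correlated between libraries over all filtered genes. Libraries with the same number correlated at -0.0662 to 0.235 within a sort and -0.0601 to 0.243 across sorts (7 pairs each). Pairs with different numbers spanned -0.269 to 0.246 within a sort and -0.21 to 0.166 across sorts. The 3 exercised pairs across sorts were at 0.144, 0.243 and 0.178, each the best match of its cancer library among exercised TME libraries. Exercised TME library 7 matched exercised cancer library 5 slightly better, at 0.149. The 4 sedentary pairs were at -0.0601 to 0.0499. The labels do not say that a number marks a mouse or a day, so the pairing is a hint for exercised libraries only. With the replicate block, 5 members were called higher and 18 lower in cancer cells, with 7360 of all genes called, and none in the other comparisons, and the median difference of effects was -0.0818.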

Other observations

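Exercise differences and the difference between the sorts leaned with exon length. Over the 38 members, Spearman's rho between exon length and the TME exercise log2 fold change was 0.353, against 0.138 over 15728 genes; genes are not independent replicates. The 8 shortest members, among them Isg15, had a median of 0.00 and the other members 0.52. For exercise in cancer cells rho was 0.376 over 37 members and 0.23 over 14605 genes. In cancer minus TME it was 0.31 over the 38 members and 0.241 over 16903 genes. In the difference of effects it was -0.162 over the members and 0.0368 over all genes with a length.

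Over 703 pairs of members, the median Spearman correlation within a group was 0.321 in exercised and 0.119 in sedentary cancer libraries, and 0.8 in exercised and 0.2 in sedentary TME libraries. With 4 libraries in each TME group these are coarse values, and the difference was not tested. Pairs of other genes were not measured, so these values are not known to be particular to the members. The high value of exercised TME goes with libraries 8 and 9, which stood above 7 and 10 in most members.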
